A study of Mus musculus with 25 samples.

Results

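The oocyte and maternal-effect genes described here are 10 mouse genes whose transcripts are made in the growing oocyte and serve the egg and the early embryo. The rule names them by symbol and uses no measured value, although the choice was made with earlier results of these data known: Nlrp5, Tle6, Ooep, Khdc3, Padi6, Gdf9, Zar1, Npm2, Zp3 and H1foo, 10 of the 40261 gene symbols present in either RNA table. All 10 were found by name in the embryo table of 24062 genes. In the table of mouse embryonic stem cells (mESCs), which lists 35731 genes, 9 were found by name, and H1foo stood there under its newer symbol H1f8 and was matched by its Ensembl identifier.

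The study concerned Dot1L, which places methyl groups on lysine 79 of histone H3 (H3K79), in 25 libraries, of which the 9 RNA libraries and 8 chromatin immunoprecipitation (ChIP) libraries were used here. Wild-type 8-cell embryos of the cross B6D2F1 x Cast/EiJ were collected at 56 hours after fertilization in pools of 30 to 35 embryos, with 2 pools given the solvent DMSO and 2 given the Dot1L inhibitor SGC0946. The mESCs were of the v6.5 line, with 3 wild-type (WT) and 2 Dot1L knockout (KO) RNA libraries, and with H3K79me2 ChIP (antibody ab3594) and H3K79me3 ChIP (antibody ab2621) from 2 WT and 2 KO libraries each. The inhibitor's dose and timing, the deleted part of Dot1l, the number of KO clones and whether replicates came from separate cultures were not given in the sources used here, so each p-value measures only the spread between these libraries.

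An oocyte stores RNA and protein while it grows, stops transcription before it matures, and hands this store to the embryo, which later degrades much of it as its own genome becomes active. NLRP5, TLE6, OOEP and KHDC3 form the subcortical maternal complex, a protein assembly beneath the egg surface that the embryo needs for its first cleavages, and PADI6 is needed for the cytoplasmic lattices of the egg. GDF9 and ZP3 leave the oocyte, ZAR1 binds stored messenger RNA, and NPM2 and H1FOO act on chromatin. A transcript counted at the 8-cell stage may be a remnant of the maternal store or may have been made by the embryo, and in pooled samples fewer cells with a transcript and less RNA per cell cannot be told apart.

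Promoters of 4 of these genes are shown because they belong to 3 genes that were lower in KO mESCs (Ooep, Khdc3 and Zp3) and to 1 that was higher (Tle6). Each run holds the 250 bases before the annotated start, read 5′ to 3′ on the gene's own strand, from RefSeq annotation of GRCm38.p6. Capitals mark each E-box, CANNTG, the motif that basic helix-loop-helix factors bind. Ooep lies at chr9:78378589-78378838 (minus strand), Khdc3 at chr9:73102148-73102397 (plus strand), Zp3 at chr5:135979855-135980104 (plus strand) and Tle6 at chr10:81600901-81601150 (minus strand). In Khdc3 and Tle6 the start used in the promoter table lies inside the gene's outermost annotated bounds, so other annotated transcripts begin upstream of it, and where the table lists several starts (Tle6 and Nlrp5) the most upstream of those listed was used.
Ooep: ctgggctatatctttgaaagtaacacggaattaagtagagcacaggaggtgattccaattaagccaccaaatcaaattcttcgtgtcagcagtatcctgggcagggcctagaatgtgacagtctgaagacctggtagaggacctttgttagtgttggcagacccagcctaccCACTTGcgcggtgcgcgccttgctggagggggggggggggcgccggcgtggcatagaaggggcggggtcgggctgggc
Khdc3: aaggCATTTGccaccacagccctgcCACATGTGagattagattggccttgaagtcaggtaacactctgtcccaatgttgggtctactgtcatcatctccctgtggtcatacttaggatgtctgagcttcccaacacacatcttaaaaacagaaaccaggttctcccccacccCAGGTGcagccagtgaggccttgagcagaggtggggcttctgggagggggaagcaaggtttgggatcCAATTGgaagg
Zp3: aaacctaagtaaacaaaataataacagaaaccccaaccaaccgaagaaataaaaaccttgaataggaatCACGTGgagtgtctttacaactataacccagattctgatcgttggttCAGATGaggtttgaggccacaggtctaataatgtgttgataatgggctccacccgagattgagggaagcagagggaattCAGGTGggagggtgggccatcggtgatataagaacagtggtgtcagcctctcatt
Tle6: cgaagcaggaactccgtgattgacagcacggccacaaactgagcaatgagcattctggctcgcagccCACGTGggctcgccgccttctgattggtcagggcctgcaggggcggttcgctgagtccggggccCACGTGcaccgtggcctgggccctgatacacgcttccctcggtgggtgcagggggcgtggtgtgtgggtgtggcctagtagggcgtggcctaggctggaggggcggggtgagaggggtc
The E-box is its own reverse complement pattern, so both strands were covered by 1 search. All 8 members with a promoter in the RefSeq table held at least 1 CANNTG, as did 66.2% of the 32851 promoters of the same length, and Gdf9 and Npm2 had no promoter entry there. Its first base lay 78 bases before the start in Ooep (-78), in Khdc3 (at -78 among 5 matches) and in Padi6 (at -78 among 2). In the other promoters the matches lay at other positions. How often a match falls at -78 over all promoters was not counted, and the position depends on the start used. The special form CACGTG occurred at both E-boxes of Tle6 and at 1 of the 3 of Zp3, against 6.02% of all promoters with at least 1. TAATTG, searched on both strands, occurred in Ooep alone of the 8, against 7.17% of all promoters. The promoters differed in CpG content: the ratio of observed to expected CpG was 0.628 in Tle6, 0.568 in Ooep and 0.431 in Zp3, while Khdc3 held 0 CpG, against a median of 0.374 over all promoters. These matches describe the letters and were not tied to any factor.

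RNA depth was similar across groups, with 24950199 to 32479590 counts per embryo library and 26860527 to 33755064 per mESC library. Levels are given as CPM, the counts of a gene as a share of its library's total after scaling for library composition. CPM is comparable between libraries for 1 gene but not between genes, since gene length is not taken into account. Scatter between replicates differed greatly between the 2 systems, with a coefficient of biological variation of 0.442 in embryos and 0.0467 in mESCs. Dot1l itself was at 277.8 and 255.8 CPM in the DMSO pools and 221 and 214 in the inhibitor pools (adjusted p = 0.582), and at 96.9 to 104 CPM in WT and 71.5 and 81.4 CPM in KO mESCs (log2 fold change -0.39, adjusted p = 1.6e-04). Since the sources do not say which exons were removed, this total does not check the KO label. Pou5f1, Klf5, Tead4 and Gata6, 4 of a list of 12 genes the early embryo transcribes, averaged 708, 741, 453 and 286 CPM in the DMSO pools. The summed level of all 12 was 2495 to 2570 CPM with DMSO, where these 4 held most of it, and 1886 to 2153 CPM with SGC0946. Of 12 markers of the follicle cells around an oocyte, 3 passed the filter on low counts and 4 (Ptx3, Inha, Inhba and Fshr) were at 0 in all 4 pools. The summed level of the 12 was 4.26 to 9.61 CPM with DMSO and 6.45 to 8.43 CPM with SGC0946, with Kitl highest at means of 3.99 and 5.04 CPM. Of 6 sperm markers 2 were at 0 in all 4 pools, and their sum was 0 to 0.867 CPM with DMSO and 1.065 to 1.11 CPM with SGC0946. The part of such cells in the embryo values was not tested.

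The first question was whether maternal transcripts stood at another level in 8-cell embryos given the Dot1L inhibitor. All 10 genes were detected in all 4 pools, and none of them passed the test in either direction. Their log2 fold changes (SGC0946 against DMSO) ran from -0.43 in Tle6 to 0.27 in Npm2, 5 above 0 and 5 below, while 51.4% and 48.6% of all tested genes lay above and below 0. The median was -0.06, beside 0.01 over all 14351 genes tested. In the same fit by edgeR's quasi-likelihood test with Benjamini-Hochberg adjustment, 0 of the 14351 genes (0.0%) were called at an adjusted p under 0.05. At an unadjusted p under 0.05 there were 0 of the 10 genes and 1169 of all genes (8.15%). DESeq2 called 0 of the 10 and 126 of all genes (0.878%), but it gave Ooep no adjusted p. Without 1 pool at a time edgeR called 4 genes (without DMSO replicate 1), 8 (without DMSO replicate 2), 18 (without SGC0946 replicate 1) and 365 (without SGC0946 replicate 2), and 0 of the 10 in each case.

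**Figure D1:**
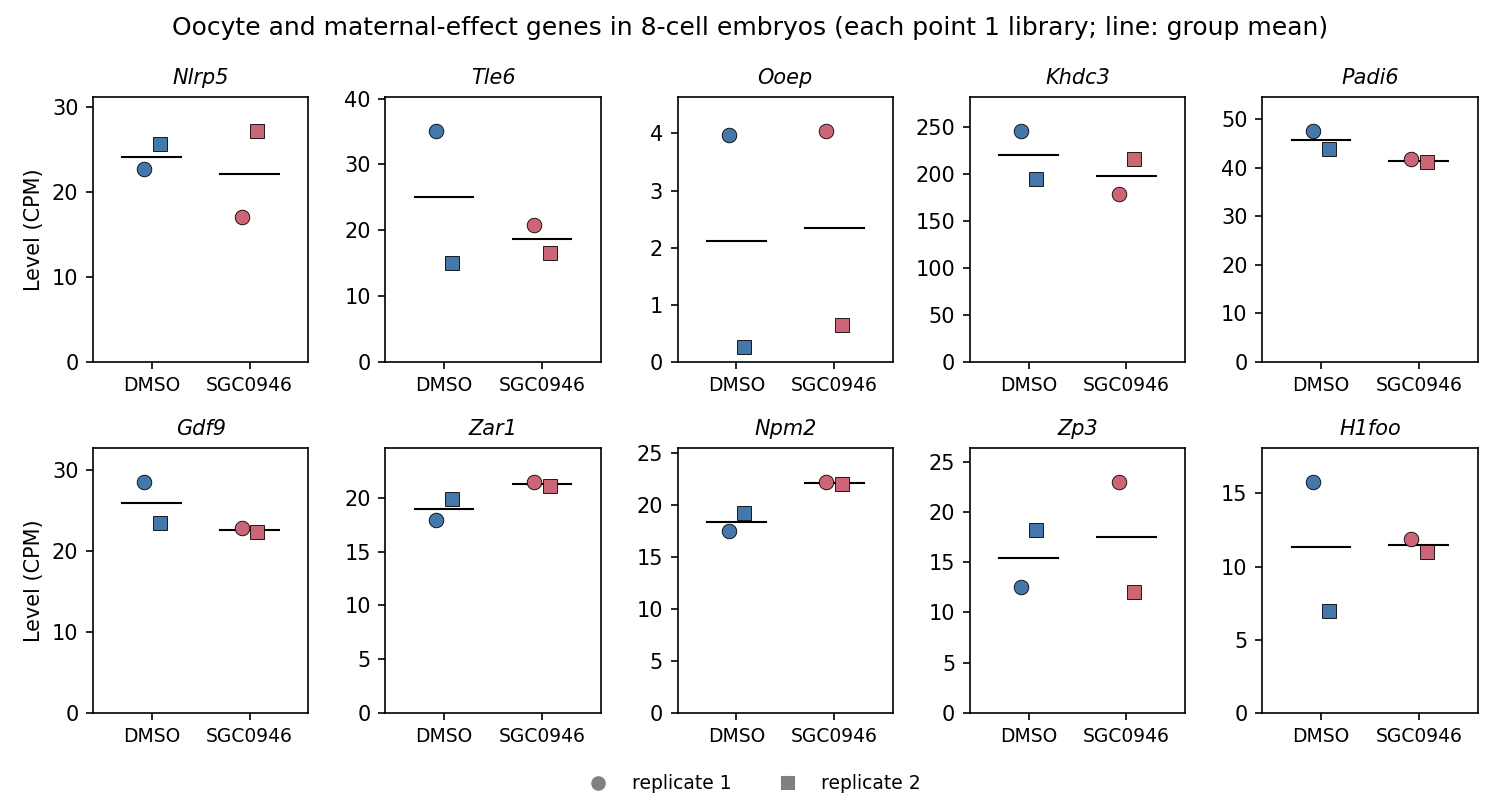
Levels of the 10 genes in 8-cell embryos, in CPM on the vertical axis of each panel, by treatment on the horizontal axis. Each point is 1 pool (circle, replicate 1; square, replicate 2) and each line a group mean; the pools of Padi6 (41.2 to 47.6 CPM) lie close together, while those of Ooep (0.264 to 4.04 CPM) split within both groups.

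Among the genes of the subcortical maternal complex, Khdc3, which encodes an atypical KH domain protein, was counted most deeply, with 4699 to 7112 reads per pool. Its level was 245.7 and 194 CPM with DMSO and 179 and 216 CPM with SGC0946. The groups overlapped, and the log2 fold change was -0.15 ± 0.15 (SE, n = 2 against 2; 95% confidence interval -0.49 to 0.18; adjusted p = 0.876). This was the narrowest interval among the 10.

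Nlrp5, the NLR family protein of the complex, stood at 22.7 and 25.7 CPM with DMSO and at 17.0 and 27.2 CPM with SGC0946. The lowest and the highest pool were both inhibitor pools. The log2 fold change was -0.13 ± 0.30 (SE; interval -0.76 to 0.51; adjusted p = 0.969). Tle6, a member of the Groucho family of co-repressors, stood at 35.1 and 15.0 CPM with DMSO and at 20.7 and 16.5 CPM with SGC0946. The DMSO pools enclosed both inhibitor pools, and the log2 fold change was -0.43 ± 0.36 (SE; interval -1.21 to 0.35; adjusted p = 0.836).

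Ooep, the KH domain partner of KHDC3, was the least deeply counted of the 10 in embryos. It had 108 and 7 reads with DMSO and 106 and 21 reads with SGC0946, which is 3.98 and 0.264 CPM against 4.04 and 0.639 CPM. Within each treatment 1 pool was high and 1 was low, and the high pool was the one numbered 1 in both. The labels do not say that pools with the same number share anything. The log2 fold change was 0.14 ± 1.16 (SE; interval -2.34 to 2.62; adjusted p = 0.995), the widest interval of the group.

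Padi6 was nearly level across pools, at 47.6 and 43.9 CPM with DMSO and 41.7 and 41.2 CPM with SGC0946. Both inhibitor pools were below both DMSO pools, by a log2 fold change of -0.14 ± 0.21 (SE; interval -0.60 to 0.31; adjusted p = 0.938). Such a lack of overlap was common: it held for 4 of the 10 genes and for 5632 of the 14351 genes tested (39.2%).

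The secreted products came next. Gdf9, the growth factor by which an oocyte signals to its follicle cells, stood at 28.5 and 23.4 CPM with DMSO and 22.9 and 22.4 CPM with SGC0946. The inhibitor pools were the lower ones without overlap, and the log2 fold change was -0.20 ± 0.27 (SE; interval -0.77 to 0.37; adjusted p = 0.926). Zp3, the zona pellucida glycoprotein, stood at 12.5 and 18.2 CPM with DMSO and at 23.0 and 12.0 CPM with SGC0946. The inhibitor pools lay outside the DMSO pools on both sides (log2 fold change 0.18 ± 0.37, SE; interval -0.60 to 0.97; adjusted p = 0.962).

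Zar1, which binds and stores maternal messenger RNA, stood at 17.9 and 19.9 CPM with DMSO and at 21.5 and 21.1 CPM with SGC0946. Npm2, the oocyte's histone chaperone, stood at 17.5 and 19.2 CPM with DMSO and at 22.2 and 22.0 CPM with SGC0946. In both genes the inhibitor pools were the higher ones without overlap, and neither difference passed the test. The log2 fold changes were 0.17 ± 0.28 for Zar1 (SE; interval -0.44 to 0.78; adjusted p = 0.953) and 0.27 ± 0.28 for Npm2 (SE; interval -0.34 to 0.87; adjusted p = 0.885). H1foo, the oocyte's linker histone, stood at 15.8 and 6.94 CPM with DMSO and at 11.9 and 10.98 CPM with SGC0946, with both inhibitor pools inside the DMSO range (log2 fold change 0.01 ± 0.41, SE; interval -0.88 to 0.90; adjusted p = 0.999).

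Other oocyte genes were read in embryos from further lists. In 5 lists (other genes of the maternal complex and the oocyte Nlrp family, zona and secreted genes, messenger RNA storage and decay, oocyte transcription factors, and maternal-effect chromatin genes), 53 genes were tested and 0 were called by edgeR, with 5 at an unadjusted p under 0.05, beside 8.15% of all genes. The lowest p was that of Dazl, an RNA-binding protein of germ cells, which averaged 7.74 CPM with DMSO and 22.3 CPM with SGC0946 (log2 fold change 1.52, unadjusted p = 4.4e-04, adjusted p = 0.219). DESeq2 called Dazl, and no other gene of these lists. With edgeR, Dazl was called with the replicate block, without a low-count filter and without SGC0946 replicate 2, and without that pool Cnot6l was also called higher and Dppa3 lower. Pan2, a deadenylase subunit, averaged 59.4 and 47.1 CPM (-0.33, adjusted p = 0.759). Dppa3, a maternal factor that protects DNA methylation in the zygote, averaged 920 and 750 CPM (-0.29, adjusted p = 0.588), and Dnmt3l averaged 22.6 and 28.9 CPM (0.36, adjusted p = 0.820). Cd9, the egg surface protein needed for fusion with sperm, averaged 192 and 141 CPM (-0.45, adjusted p = 0.469), and Zp1 averaged 4.53 and 5.98 CPM (0.40, adjusted p = 0.927). Zbed3, which joins the maternal complex, averaged 50.3 and 37.8 CPM (-0.41, adjusted p = 0.731), and Nlrp9b averaged 2.35 and 4.61 CPM (0.97, adjusted p = 0.784). Of the transcription factors, Obox1 averaged 0.845 and 2.38 CPM (1.49, adjusted p = 0.812) and Nobox 2.10 and 2.05 CPM (-0.04, adjusted p = 0.999). Each adjusted p is from edgeR with Benjamini-Hochberg adjustment over all genes tested.

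The second question was whether the same genes differed between WT and Dot1L KO mESCs, which are not germ cells and in which oocyte genes are mostly low. Of the 10 genes, 9 passed the filter on low counts, and 7 of these 9 were called: Ooep, Khdc3, Nlrp5, Npm2 and Zp3 were lower in KO cells, and Tle6 and Padi6 were higher. Calls were frequent in this comparison, with 8572 of 19532 genes called by edgeR (43.9%), 4221 of them lower (21.6%) and 4351 higher (22.3%). With upper-quartile scaling 5503 of 8671 called genes were higher, and 6 of the 9 genes described here were called, Nlrp5 being the one lost. At an unadjusted p under 0.05 there were 8 of the 9 genes and 50.6% of all genes. Of the 9 genes 7 had a log2 fold change (KO against WT) below 0 and 2 above, beside 49.9% and 50.1% of all genes, and the median was -0.71, beside 0.00 over all genes tested. Groups did not overlap in CPM for 8 of the 9 genes and for 12207 of all genes (62.5%). The genes were chosen with earlier results known, so these counts carry no test.

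**Figure D2:**
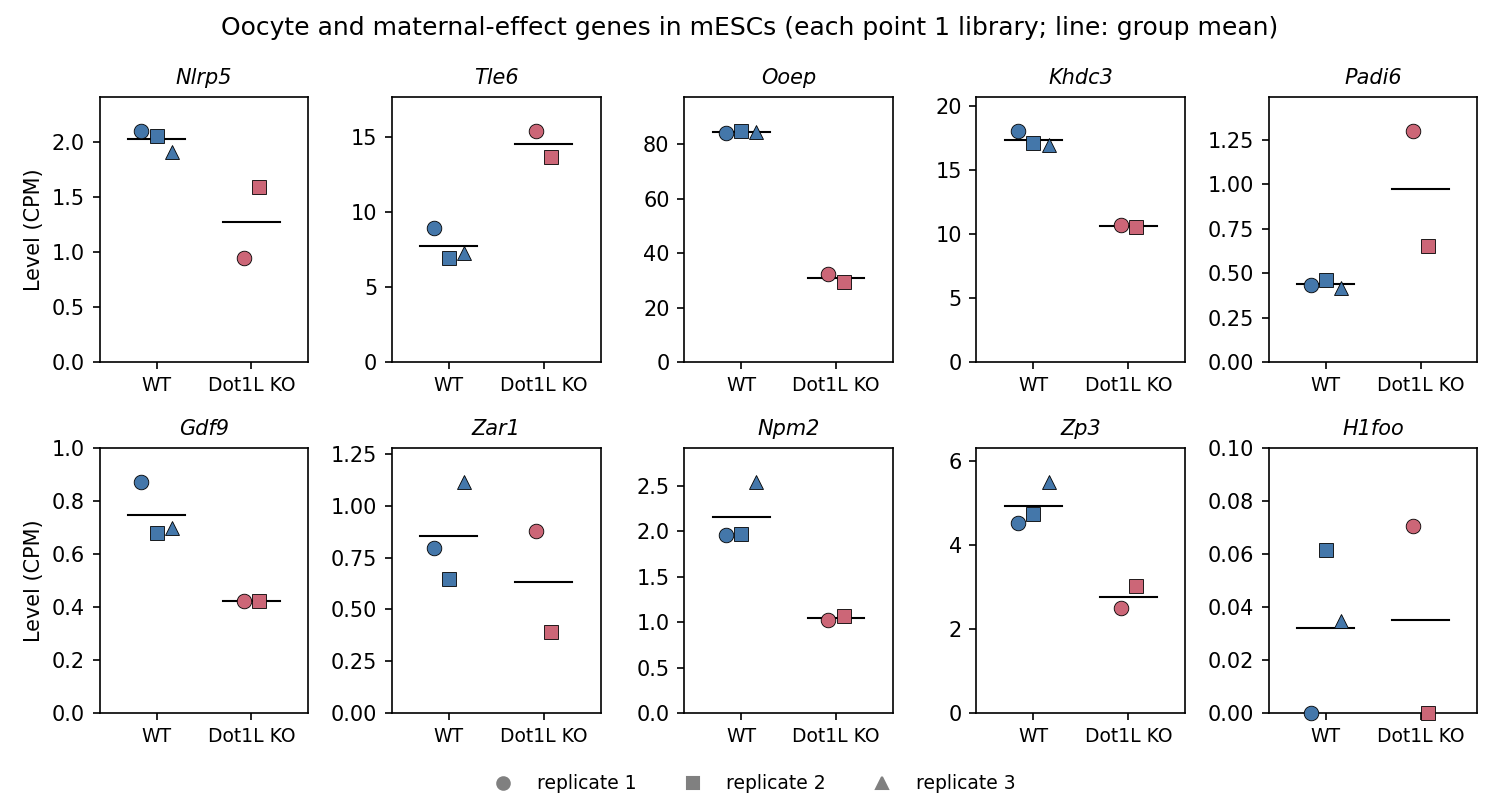
Levels of the 10 genes in mESCs, in CPM on the vertical axis of each panel, by genotype on the horizontal axis. Each point is 1 library (circle, square and triangle for replicates 1, 2 and 3) and each line a group mean; the 3 WT libraries of Ooep (84.2 to 84.9 CPM) stand far above the 2 KO libraries (29.5 and 32.3 CPM).

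Ooep had the firmest difference of the group. It stood at 84.2, 84.9 and 84.6 CPM across WT libraries, against 32.3 and 29.5 CPM across KO libraries. The WT libraries agreed within 1 CPM of each other, and both KO libraries were far below. The log2 fold change was -1.45 ± 0.05 (SE, n = 3 against 2; 95% confidence interval -1.57 to -1.34; adjusted p = 6.9e-10), which leaves 0.365 of the WT level. Ooep ranked 39 of 19532 genes by p, and its change was larger in size than that of 96.9% of genes. An adjusted p under 0.05 with a log2 fold change below -1 was reached by 593 genes (3.04%), Ooep and Npm2 among them.

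Khdc3 stood at 18.0, 17.1 and 16.9 CPM in WT and at 10.7 and 10.6 CPM in KO cells. Both KO libraries were below all WT libraries, by a log2 fold change of -0.71 ± 0.08 (SE; interval -0.87 to -0.54; adjusted p = 8.1e-06). Nlrp5 was low in mESCs, at 2.10, 2.06 and 1.91 CPM in WT and 0.948 and 1.59 CPM in KO cells. Its groups did not overlap (log2 fold change -0.66 ± 0.23, SE; interval -1.17 to -0.15; adjusted p = 0.0364), but the call did not hold in every setting. The edgeR adjusted p was 0.294 without KO replicate 1 (log2 fold change -0.35), 0.0827, 0.0867 and 0.0579 without WT replicates 1, 2 and 3, and 0.0557 with upper-quartile scaling, and DESeq2 gave 0.107.

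Tle6 went the other way, at 8.95, 6.92 and 7.24 CPM in WT and 15.4 and 13.7 CPM in KO cells. Both KO libraries were above all WT libraries, with a log2 fold change of 0.92 ± 0.11 (SE; interval 0.68 to 1.16; adjusted p = 2.2e-05). Tle6 overlaps 2 annotated genes, Tle2 by 1678 bp and the long noncoding Gm32024 by 4806 bp. Whether counting used strand is not stated, so reads from the overlapping parts cannot be assigned with certainty. Tle2, a Groucho co-repressor, also rose, from a mean of 2.04 to 3.82 CPM (0.90, adjusted p = 0.0012). The part of shared reads in either rise was not tested.

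Padi6 was near the limit of detection, from 12, 15 and 12 counts for WT and 37 and 20 for KO cells, or 0.435, 0.461 and 0.418 CPM against 1.30 and 0.650 CPM. Both KO libraries were above all WT libraries (log2 fold change 1.13 ± 0.36, SE; interval 0.35 to 1.91; adjusted p = 0.0219). The call rested on the higher KO library: without KO replicate 1 the log2 fold change was 0.56 (adjusted p = 0.385), and DESeq2 gave an adjusted p of 0.0779 with all libraries.

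**Figure D3:**
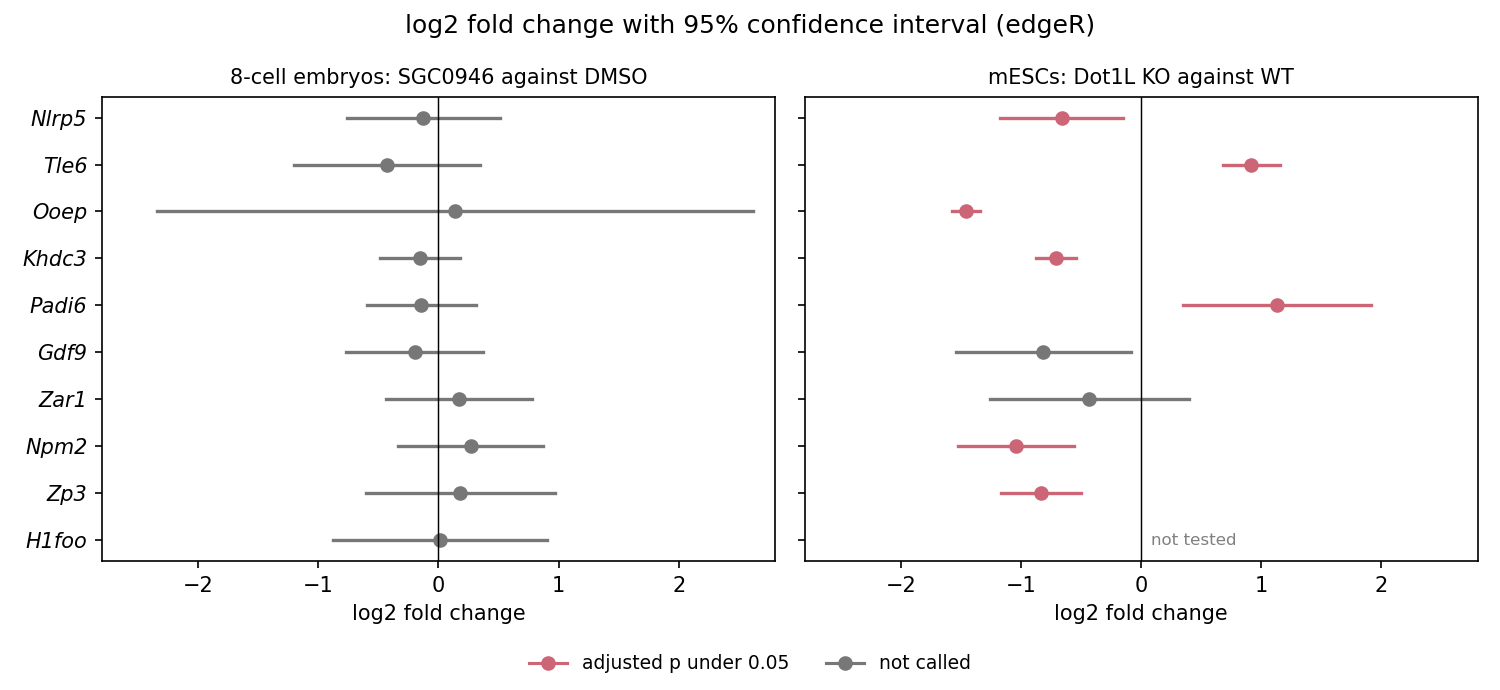
Log2 fold changes on the horizontal axis with 95% confidence intervals (edgeR), SGC0946 against DMSO in embryos (left) and Dot1L KO against WT in mESCs (right), 1 gene per row. In embryos all 10 intervals cross 0, and in mESCs 7 of the 9 tested genes are called (red), with Tle6 and Padi6 on the higher side; H1foo was not tested in mESCs.

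Zp3 stood at 4.53, 4.74 and 5.50 CPM in WT and at 2.49 and 3.02 CPM in KO mESCs. Both KO libraries were lower than every WT library, by a log2 fold change of -0.83 ± 0.15 (SE; interval -1.17 to -0.50; adjusted p = 7.7e-04). Counts of Gdf9 were as low as 24, 22 and 20 in WT cells, against 12 and 13 in KO cells, which is 0.870, 0.676 and 0.696 CPM against 0.421 and 0.423 CPM. Its groups did not overlap, yet it did not pass the test (log2 fold change -0.81 ± 0.33, SE; interval -1.54 to -0.09; adjusted p = 0.0664). With a filter of at least 10 counts in every library in place of edgeR's own filter, its adjusted p was 0.0375. Gdf9 also overlaps Uqcrq, a subunit of the respiratory chain, by 58 bp.

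Npm2 stood at 1.96, 1.97 and 2.54 CPM in WT and at 1.02 and 1.07 CPM in KO cells, from 54, 64 and 73 against 29 and 33 counts. All KO values were lower (log2 fold change -1.04 ± 0.22, SE; interval -1.52 to -0.55; adjusted p = 0.0022). The gene contains the long noncoding Gm52133 over 4004 bp, whose reads may be included. Zar1, in contrast, had overlapping groups, at 0.797, 0.646 and 1.11 CPM in WT and 0.878 and 0.390 CPM in KO cells (log2 fold change -0.43 ± 0.38, SE; interval -1.26 to 0.40; adjusted p = 0.394). H1foo was all but undetected and was not tested: its counts were 0, 2 and 1 for WT, against 2 and 0 for KO. Counts of Nlrp5, Ooep and Zar1 were not whole numbers in the deposited table, and that of Khdc3 was not whole in WT replicate 1 only (496.6). RefSeq names the pseudogenes Nlrp5-ps and Zar1-ps. Counts of Nlrp5, Ooep and Zar1 are uncertain where copies share reads, as is that 1 count of Khdc3.

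Set side by side, the 2 systems gave different values for these transcripts, although the tables were made and scaled separately and no test joins them. H1foo ranged from 6.94 to 15.8 CPM in embryos and from 0 to 0.0702 CPM in mESCs, and Padi6 from 41.2 to 47.6 CPM in embryos and from 0.418 to 1.30 CPM in mESCs. Khdc3 ranged from 179 to 245.7 CPM in embryos and from 10.6 to 18.0 CPM in mESCs. Ooep went against this pattern, with 0.264 to 4.04 CPM in embryos and 29.5 to 84.9 CPM in mESCs. Whether the KO and inhibitor effects differ from each other was not tested.

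Markers of fibroblasts, on which mESCs are often grown, also differed between the mESC groups. Their summed level over 6 genes was 151.6 to 193.7 CPM in WT and 194.3 to 241.6 CPM in KO libraries, and 3 of the 5 tested genes rose (1 to 4 under the alternatives), among them Col1a1 (log2 fold change 0.62, adjusted p = 0.0012), with none of the 6 at 0 throughout. The others that rose were Postn (0.42, adjusted p = 0.0240) and Thy1 (0.14, adjusted p = 0.0483). Of 8 pluripotency markers, all tested, 4 fell and 1 rose. These counts and those of the fibroblast markers stand beside 43.9% of all genes called, 22.3% higher and 21.6% lower. Nanog fell from a mean of 495.8 to 243.6 CPM (-1.02, adjusted p = 2.6e-09), Zfp42 from 412.6 to 299.7 CPM (-0.46, adjusted p = 1.1e-05) and Dppa5a from 1022 to 826.9 CPM (-0.31, adjusted p = 1.3e-05), while Utf1 rose from 98.7 to 118.7 CPM (0.27, adjusted p = 0.0018). The part of these differences in the results for the oocyte genes was not tested.

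Other oocyte genes were read in mESCs from the same 5 lists, whose counts stand beside 43.9% of all genes called, 21.6% lower and 22.3% higher. In the list of 10 further genes of the maternal complex and the Nlrp family, 7 were tested, 5 fell and 1 rose. The count that fell was 2 with DESeq2 and without KO replicate 1, 3 with upper-quartile scaling and without WT replicate 1 or 2, and 4 without KO replicate 2 or WT replicate 3, and Nlrp4f and Nlrp14 were called by DESeq2. Nlrp4f fell from a mean of 35.1 to 13.4 CPM (log2 fold change -1.39, adjusted p = 9.3e-08), Nlrp14 from 4.17 to 2.36 CPM (-0.82, adjusted p = 6.5e-04) and Nlrp9b from 6.42 to 4.88 CPM (-0.40, adjusted p = 0.0179). Nlrp4c rose from 1.66 to 3.09 CPM (0.88, adjusted p = 0.0016). Nlrp proteins share a nucleotide-binding domain and leucine-rich repeats, and several Nlrp genes are oocyte-specific copies of one another, so their counts are uncertain where copies share reads. Of 9 zona, surface and secreted genes only Cd9 passed the filter, at means of 122 and 111 CPM (-0.13, adjusted p = 0.0727), and it was called lower without a low-count filter and without KO replicate 2.

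Of 15 genes of messenger RNA storage and decay, 13 were tested, 6 rose and 2 fell. DESeq2 called 4 higher and 1 lower. Cpeb1, which controls the poly(A) tail and translation of stored transcripts, rose from 7.12 to 18.1 CPM (1.34, adjusted p = 1.5e-07). Ybx2, a germ cell RNA-packaging protein, rose from 6.79 to 15.6 CPM (1.20, adjusted p = 8.1e-07), and Dazl rose from 19.3 to 25.4 CPM (0.40, adjusted p = 0.0011). Cnot6l, a deadenylase of the CCR4-NOT complex, fell from 83.9 to 60.9 CPM (-0.46, adjusted p = 8.4e-06), and Zfp36l2 fell from 41.5 to 37.4 CPM (-0.15, adjusted p = 0.0390). Zfp36l2 was not called by DESeq2, with upper-quartile scaling, or without WT replicate 1, WT replicate 2 or KO replicate 1. The median log2 fold change of this list was 0.05, against -0.40 in the Nlrp list.

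Among 9 oocyte transcription factors, 3 were tested and 1 was called: Sohlh2, a basic helix-loop-helix factor of germ cells, fell from 29.2 to 18.7 CPM (-0.64, adjusted p = 1.7e-06). Nobox, the homeobox factor of primordial follicles, was counted 4, 3 and 9 times in WT cells, against 14 and 11 times in KO cells (adjusted p = 0.0806), and it was called higher with the replicate block and without WT replicate 3. Without KO replicate 2, Taf4b was called lower. All 15 maternal-effect chromatin genes were tested, of which 6 fell and 1 rose, together 7 of 15 beside 43.9% of all genes. Dnmt3l fell from 155 to 127 CPM (-0.29, adjusted p = 9.3e-05), Tet3 from 43.1 to 32.3 CPM (-0.42, adjusted p = 9.9e-05) and Dppa3 from 23.6 to 18.6 CPM (-0.35, adjusted p = 0.0012), while Ezh2 rose from 198 to 228 CPM (0.21, adjusted p = 8.4e-04).

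**Figure D4:**
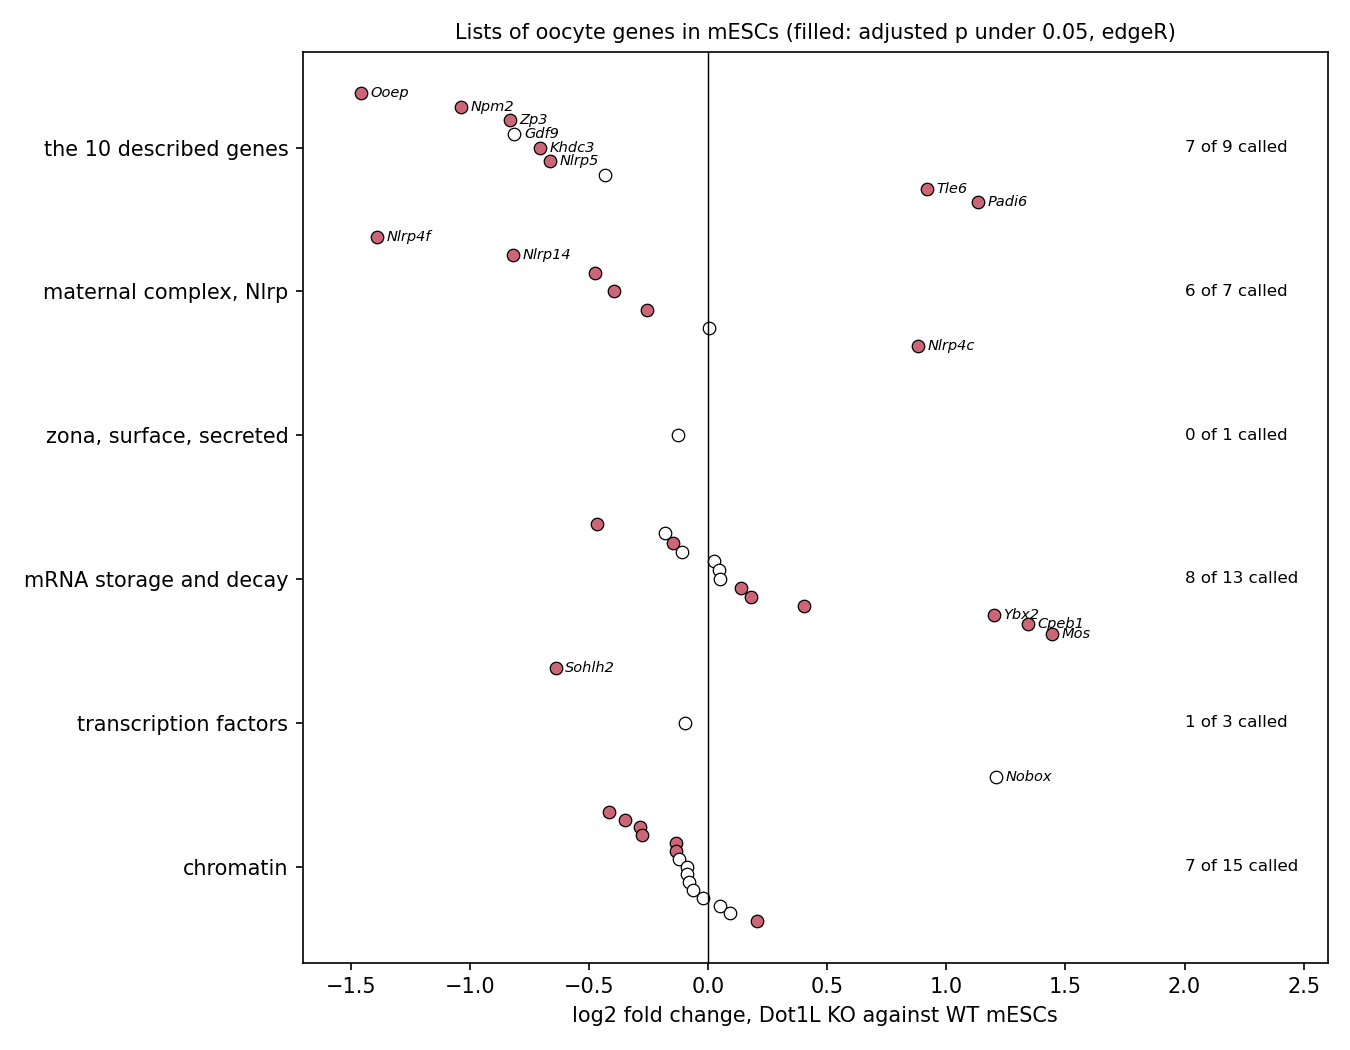
Log2 fold change between Dot1L KO and WT mESCs on the horizontal axis for each tested gene of the 10 described genes and of 5 further lists of oocyte genes, 1 list per band. Filled points passed an adjusted p under 0.05 (edgeR); 6 of 7 genes in the Nlrp band are filled, 5 of them below 0, while the points farthest from 0 in the band of messenger RNA storage genes, Cpeb1 and Ybx2 among them, lie above 0.

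The third question was whether these genes carried H3K79 methylation in WT mESCs. H3K79me2 and H3K79me3 are laid down over transcribed gene bodies, mostly near their 5′ part. Marked genes were those with at least 1 bp of their body under a called peak in both WT lists. H3K79me2 marked 1 of the 10 genes, Ooep, against 8233 of 21887 protein-coding genes (37.6%), or 35.5% of the 17421 genes no longer than the longest of the 10. H3K79me3 marked 0 of the 10 and 2179 of all genes (9.96%). No KO library had a peak within 10 kb of any of the 10 genes, and in KO lists 9 and 10 genes carried H3K79me2 (0.0411% and 0.0457%) and 55 and 165 carried H3K79me3 (0.251% and 0.754%). With gene bodies extended by 2 kb on each side, H3K79me2 marked Ooep and Gdf9 (40.7% of all genes) and H3K79me3 marked Gdf9 (11.1% of all genes).

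The H3K79me2 peak of Ooep lay towards the 3′ end of the gene. The gene spans chr9:78376903-78378588 (1686 bp, minus strand; mm10). The peak spanned chr9:78376875-78377374 in WT replicate 1, where the authors' enrichment was 6.12-fold (-log10 q 12.6), and chr9:78376937-78377373 in WT replicate 2, where it was 4.06-fold (-log10 q 5.42). It covered 28.0% and 25.9% of the gene body and began 1214 and 1215 bp after the start. In WT replicate 1 it ran to 1713 bp after the start, past the gene's end. Further H3K79me2 peaks lay between Ooep and Dppa5a. They began 5396, 7518 and 9726 bp after the start of Ooep in WT replicate 1 and 6893 bp after it in WT replicate 2. A single H3K79me3 peak of 213 bp lay 222 bp beyond the end of Ooep in WT replicate 1 only (4.11-fold). The nearest protein-coding neighbour, Dppa5a, a pluripotency-associated KH domain gene 8704 bp away, was marked by both modifications and fell from 1022 to 826.9 CPM (log2 fold change -0.31, adjusted p = 1.3e-05).

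**Figure D5:**
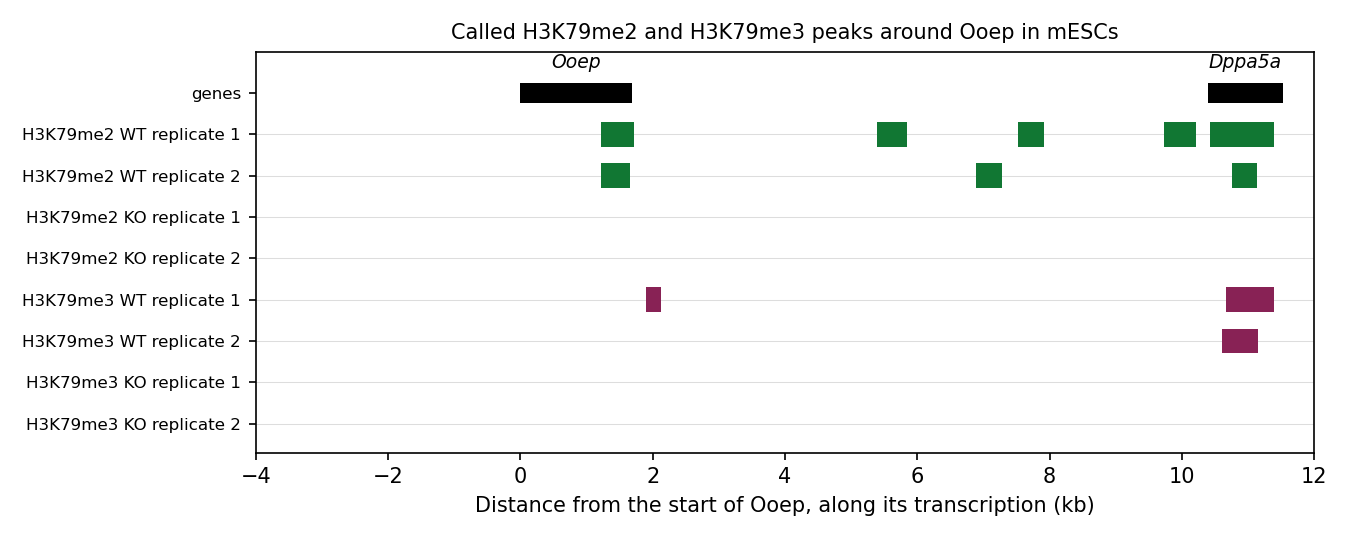
Peaks called in each of the 8 ChIP lists around Ooep, against the distance from its start along the direction of transcription in kb. Bars are genes (black), H3K79me2 peaks (green) and H3K79me3 peaks (purple); both WT H3K79me2 lists have a peak starting 1214 or 1215 bp into Ooep, and the 4 KO rows are empty.

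The other 9 genes had no peak over their bodies in either WT list of either mark. Gdf9, at chr11:53430774-53437904, came closest, with H3K79me2 peaks 56 and 105 bp away and H3K79me3 peaks 121 and 150 bp away in the 2 WT replicates. Those peaks lay over Uqcrq, which overlaps the edge of Gdf9, and Uqcrq did not pass the test (means of 47.1 and 46.4 CPM, adjusted p = 0.786). Khdc3, at chr9:73101381-73106631, had its nearest H3K79me2 peaks 4013 and 6866 bp away, Npm2 at chr14:70647296-70661802 had them 5178 and 5725 bp away, Padi6 at chr4:140727355-140742643 had them 6715 and 6020 bp away, and Zp3 at chr5:135980105-135988624 had them 7047 and 7026 bp away. The remaining genes were farther from the mark: Tle6 at chr10:81590904-81601185 by 24257 and 24417 bp, H1foo at chr6:115944931-115950242 by 92514 and 92709 bp, Zar1 at chr5:72577113-72581361 by 17819 and 333576 bp, and Nlrp5 at chr7:23385889-23441923 by 640672 and 640613 bp.

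Marking followed the expression level over all genes. Among genes under 1 CPM in WT mESCs, where Padi6, Gdf9 and Zar1 fell, 1.58% carried H3K79me2. Of those from 1 to 10 CPM, with Nlrp5, Tle6, Npm2 and Zp3, 10.9% did. From 10 to 100 CPM the share was 71.7%, and of the genes described here Ooep was marked and Khdc3 was not. Over all tested genes with a position, 33.9% of the 8049 genes with H3K79me2 were lower in KO cells and 18.1% were higher, whereas of the 8833 genes without it 12.0% were lower and 30.4% were higher. Calls followed the level as well. Under 1 CPM 2.91% of genes were lower and 25.9% higher, and from 1 to 10 CPM 9.48% and 30.7%. From 10 to 100 CPM 29.0% were lower and 24.1% higher, and from 100 CPM upwards 48.3% and 10.7%. The part of level in the contrast between marked and unmarked genes was not tested. Khdc3, Nlrp5, Npm2 and Zp3 were called lower without a called peak over them, and Tle6 and Padi6 higher without one. A peak list holds only regions past the caller's threshold, so a missing peak does not show that the modification was absent. In the lists of other oocyte genes, beside 37.6% of all genes, H3K79me2 marked 1 of 10 genes of the maternal complex and Nlrp list (Zbed3), 1 of 9 zona, surface and secreted genes (Cd9) and 1 of 9 transcription factors (Taf4b). It marked 6 of 15 genes of messenger RNA storage and 14 of 15 of the chromatin list. Nlrp4f, which fell with Ooep, was not marked.

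Of the 15 tested genes within 10 kb of a gene described here, 7 were called lower and 2 higher in KO mESCs (43.9% of all genes were called). Rab27a, 3758 bp from Khdc3, fell from 40.1 to 25.2 CPM (-0.67, adjusted p = 8.8e-07). Aff4, 8944 bp from Gdf9, fell from 686.9 to 487.9 CPM (-0.49, adjusted p = 5.0e-07). Plxnd1, 4569 bp from H1foo, rose from 5.34 to 10.4 CPM (0.96, adjusted p = 9.3e-05). Fgf17, 5028 bp from Npm2, fell from 18.1 to 7.42 CPM (-1.29, adjusted p = 1.1e-07), while Xpo7, 324 bp from Npm2 on the other side, fell from 231.7 to 196.9 CPM (-0.23, adjusted p = 3.8e-04). Padi4, 2865 bp from Padi6, averaged 5.78 and 6.37 CPM and did not pass the test (0.14, adjusted p = 0.329). Dtx2 and Ssc4d on either side of Zp3 did not pass it either, with adjusted p of 0.552 and 0.602.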

How the data were processed

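RNA was measured in 4 libraries of 8-cell embryos and 5 of mESCs, and H3K79me2 and H3K79me3 in 8 ChIP libraries; the 8 input libraries were not used here. The deposited embryo table holds whole read counts per gene symbol. The mESC table as deposited lists Ensembl genes with estimated counts (expected counts), which need not be whole: in each library 59.2 to 60.0% of values were (tolerance 1e-06). They were rounded before testing, and 69 genes without a symbol held at most 0.0163% of counts. The submitters' processing notes name mm10, STAR and HTSeq for the RNA, with kallisto also named for mESCs and alone for WT replicate 1, and Bowtie2 and MACS2 for ChIP; versions, strand setting and handling of molecular identifiers are not given in the sources used here. The deposited peak lists, called per library, give a score, the fold enrichment as a ratio, and -log10 p and -log10 q per peak, all made by the authors; enrichment and -log10 q were used only to describe peaks, and the score was not used. Groups followed the labels, and 0 columns of the tables lacked a sample.

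Each RNA table was fitted on its own with edgeR 4.0.16 (R 4.3.3): its own filter on low counts, TMM scaling, the quasi-likelihood test of the 2 groups, and Benjamini-Hochberg adjustment over all tested genes, called at an adjusted p under 0.05. Standard errors and 95% intervals come from that test, CPM uses TMM-scaled library sizes, and fold changes are edgeR's fitted values. The alternatives were other scalings, DESeq2 1.42.0, voom in limma 3.58.1, other filters, a replicate block and each replicate left out. Counts were also simulated, with each gene given the scatter fitted for its level and none of its own. For 14351 genes simulated from the embryos, the test recovered 34.4%, 70.8% and 85.1% of genes changed by 1, 2 and 3 on the log2 scale, with 13 false calls. For 19532 genes simulated from the mESCs it recovered 81%, 98.0% and 100% at the same sizes, with 8 false calls. Differences in scatter between genes of like level were left out, so these rates need not hold for the real libraries. Positions and promoters came from RefSeq annotation of GRCm38.p6, the assembly behind mm10.

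All 10 genes are named. From each other list and comparison, called genes with the lowest p were named, at most 3 in each direction, and where none was called the gene with the lowest p in each direction; neighbours were chosen by position, within 10 kb. Lists of markers of other cell types and of genes the embryo transcribes are given mainly by counts and sums, with fewer or other genes named than this rule gives. The genes and lists were chosen with earlier results of these data known.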

Additional observations from a re-analysis of the deposited data

How the results depend on the processing

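In embryos, the number of the 10 genes called stayed 0 under every alternative run. Ooep could not be called in all of them: DESeq2 gave it no adjusted p, and it was not tested with at least 10 counts in every library. The number of all genes called, 0 by edgeR, was 126 with DESeq2, 55 with limma-voom, 111 without a low-count filter, 23 with at least 10 counts in every library, and 4 to 365 with 1 pool left out; the cause was not tested. Changes that crossed 0 when 1 pool was left out were those of Nlrp5 (range -0.50 to 0.17), Tle6 (-0.91 to 0.31), Ooep (-1.72 to 3.12), Khdc3 (-0.31 to 0.0227), Zp3 (-0.35 to 0.58) and H1foo (-0.46 to 0.72); Padi6, Gdf9, Zar1 and Npm2 kept their direction in those fits. In mESCs, 5 to 7 of the 9 genes were called with 1 library left out (6940 to 8434 of all genes). Ooep, Khdc3, Tle6, Zp3 and Npm2 were called in every alternative run, while Nlrp5 and Padi6 were not, and Zar1 reached 0.0487 on the log2 scale without KO replicate 2, with a range of -1.11 to 0.0487. With gene bodies extended by 2 kb on each side, 2 genes carried H3K79me2 (Ooep and Gdf9) and 1 carried H3K79me3 (Gdf9). Leaving out the most abundant embryo gene and mitochondrial genes removed 1 gene, since the embryo table lists 0 with the mitochondrial prefix.

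A replicate block was also fitted, although the labels do not say that equal replicate numbers share a culture or day. Correlations of deviations from the group mean between same-numbered libraries were 0.0524 in embryos and 0.00685 and -0.026 in mESCs. In a group of 2 libraries the deviations mirror each other, so these values cannot decide whether equal numbers share anything. With the replicate block edgeR called 171 genes in embryos, 0 of the 10 among them, and 8093 in mESCs from replicates 1 and 2, with 7 of the 9. Counts were fewest for Ooep in embryos and for Padi6, Gdf9, Zar1 and H1foo in mESCs. Of these, H1foo was not tested in mESCs, and only Padi6 in mESCs was called in the main fit. For Ooep in embryos and Gdf9 and Zar1 in mESCs, differences anywhere within the intervals given cannot be told apart with these libraries. The part of depth in the scatter of these genes was not tested.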

Other observations

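Relatives of 4 of the genes were read in mESCs as well, from lists of their families. Of 8 other linker histones, all tested, 3 rose and 3 fell in Dot1L KO cells, where 43.9% of all genes were called. H1f0, the replacement linker histone of non-dividing cells, rose from a mean of 62.0 to 104.6 CPM (log2 fold change 0.76, adjusted p = 3.4e-08), and H1fx rose from 27.7 to 37.4 CPM (0.43, adjusted p = 9.0e-05), as did Hist1h1t (0.48, adjusted p = 5.0e-04). The replication-dependent Hist1h1b fell from 390.7 to 322.9 CPM (-0.28, adjusted p = 4.8e-04), and Hist1h1a (-0.27, adjusted p = 0.0023) and Hist1h1d (-0.11, adjusted p = 0.0389) fell as well. Of 4 other peptidylarginine deiminases, 2 rose and none fell: Padi3 from 3.86 to 8.92 CPM (1.21, adjusted p = 3.5e-06) and Padi2 from 12.9 to 20.7 CPM (0.69, adjusted p = 2.1e-05). Of the 5 other Groucho genes 2 rose and 2 fell, with Tle3 falling from 153.7 to 101.4 CPM (-0.60, adjusted p = 1.4e-07), Tle4 falling (-0.23, adjusted p = 0.0094; not called without KO replicate 1), and Aes (0.24, adjusted p = 0.0011) rising beside Tle2. Npm1, the abundant relative of Npm2, fell from 3303 to 2649 CPM (-0.32, adjusted p = 6.7e-05). These adjusted p are from edgeR.

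In embryos, edgeR with all 4 pools and its own filter called 0 genes of these families. H1fx averaged 9.87 CPM with DMSO and 27.9 CPM with SGC0946 (log2 fold change 1.5, adjusted p = 0.246), with no overlap between the groups. It was called by DESeq2, by limma-voom, and by edgeR with the replicate block, without a low-count filter and without SGC0946 replicate 2. Tle1 averaged 13.0 and 28.7 CPM (1.14, adjusted p = 0.468) and was called by edgeR in the last 2 of these settings. Padi4 averaged 4.79 and 5.78 CPM (0.27, adjusted p = 0.963) and Npm1 2581 and 2676 CPM (0.05, adjusted p = 0.963). On the lower side, Padi2 averaged 4.58 and 2.50 CPM (-0.87, adjusted p = 0.809), Npm3 33.6 and 27.1 CPM (-0.31, adjusted p = 0.816) and Hist1h1b 120.3 and 112.2 CPM (-0.10, adjusted p = 0.944). Tle2 had 61 and 0 counts with DMSO and 13 and 6 with SGC0946 (adjusted p = 0.898). Patl2, named here after its values were seen and an oocyte factor of messenger RNA storage, had 0 and 0 counts with DMSO and 17 and 33 counts with SGC0946 (unadjusted p = 0.0245, adjusted p = 0.521). Among 12 genes that the 8-cell embryo transcribes, 11 had log2 fold changes below 0, beside 48.6% of all genes, and 0 were called. Pou5f1 averaged 708 and 503 CPM (-0.49, adjusted p = 0.290 by edgeR). All 8 pluripotency markers, some of them in both lists, were below 0. Of these, 3 had an unadjusted p under 0.05 by edgeR, beside 8.15% of all genes. Esrrb averaged 302 and 194 CPM (-0.64, adjusted p = 0.203 by edgeR). Dppa5a was called lower by DESeq2 only. With at least 10 counts in every library, edgeR called Esrrb alone of these markers, as lower. DESeq2, limma-voom, and edgeR with the replicate block, without a low-count filter and without SGC0946 replicate 2 called Pou5f1 and Esrrb lower.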
